A study of Mus musculus with 20 samples.

Results

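The 10 genes described here are members of the CXC chemokine family and its receptors, taken from the deposited expression table by symbol: the ligands Cxcl12, Cxcl14, Cxcl16, Cxcl1, Cxcl2 and Cxcl5 and the receptors Cxcr4, Ackr3, Cxcr6 and Cxcr2. All 10 were found among the 45777 genes of the table. RNA from a uterine horn of each of 20 pregnant B6D2F1 females, aged 8 to 12 weeks, was sequenced. The tissue was taken in the evening of day 3.5, with 5 mice in each of 4 groups, and the other horn was kept for histology. All mice were wild type. Control mice received neither RU486 nor an intrauterine injection. The other groups received RU486 subcutaneously on the morning of day 3.5, and RU486 (mifepristone) is an antagonist of the progesterone and glucocorticoid receptors that made the model of implantation failure (IF). The IF group received RU486 alone. The PBMC group had also been given, on day 1.5, an intrauterine injection of peripheral blood mononuclear cells from non-pregnant mice that had been kept in culture. For the PBMC-hCG group these cells had been cultured with human chorionic gonadotropin (hCG). Mice injected with medium and no cells were not analysed here, so the injection itself and the injected cells cannot be told apart.

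CXC chemokines are small secreted proteins that direct the movement of cells through receptors coupled to G proteins. CXCL12 acts through CXCR4 and is bound as well by ACKR3, an atypical receptor that takes the ligand up and degrades it without the usual G protein signal. CXCL1, CXCL2 and CXCL5 draw neutrophils through CXCR2, and CXCL16 is made as a membrane protein whose receptor, CXCR6, is carried by T and NK cells. In the uterus these molecules are known for the recruitment of leukocytes and for signals between epithelium, stroma and embryo around implantation.

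The sequences of 4 promoters are shown because the results turn on Ackr3 and Cxcl14 and because Cxcl1 and Cxcl2 share a motif. Each is the 250 bases before the start site that the RefSeq promoter sequences of GRCm38.p6 use for the gene, read along the gene's strand, and such sequences were found for 8 of the 10 genes. Capitals mark a match to a motif that was searched on both strands. That of Ackr3 lies at chr1:90203730-90203979 on the plus strand and holds TATAAA, a match to the letters of the TATA box motif, 8 bases before that start site. That of Cxcl14 lies at chr13:56296552-56296801 on the minus strand, before a start site at 56296551, and holds TGTTCT, the reverse complement of the AGAACA element bound by progesterone and glucocorticoid receptors, 193 bases before that site. RefSeq's full extent of Cxcl14 reaches further, to 56296811, so this window lies within it. Those of Cxcl1 at chr5:90890995-90891244 and Cxcl2 at chr5:90903649-90903898, both on the plus strand, hold a match to the NF-kB motif, 71 and 97 bases before their starts.
Ackr3: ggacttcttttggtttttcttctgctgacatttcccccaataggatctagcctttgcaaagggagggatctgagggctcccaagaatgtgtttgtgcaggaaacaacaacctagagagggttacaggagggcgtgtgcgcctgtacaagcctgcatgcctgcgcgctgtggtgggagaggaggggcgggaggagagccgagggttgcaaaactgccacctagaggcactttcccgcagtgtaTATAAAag
Cxcl14: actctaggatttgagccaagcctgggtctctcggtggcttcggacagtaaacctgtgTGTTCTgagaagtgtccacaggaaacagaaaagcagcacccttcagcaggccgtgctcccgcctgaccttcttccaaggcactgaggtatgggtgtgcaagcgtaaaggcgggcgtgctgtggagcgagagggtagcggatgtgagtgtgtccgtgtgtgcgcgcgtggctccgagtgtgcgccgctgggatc
Cxcl1: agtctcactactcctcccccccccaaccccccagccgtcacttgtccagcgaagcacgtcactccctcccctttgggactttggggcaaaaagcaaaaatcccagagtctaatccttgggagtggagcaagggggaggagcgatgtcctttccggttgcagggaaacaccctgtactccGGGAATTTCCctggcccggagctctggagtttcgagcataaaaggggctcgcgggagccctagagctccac
Cxcl2: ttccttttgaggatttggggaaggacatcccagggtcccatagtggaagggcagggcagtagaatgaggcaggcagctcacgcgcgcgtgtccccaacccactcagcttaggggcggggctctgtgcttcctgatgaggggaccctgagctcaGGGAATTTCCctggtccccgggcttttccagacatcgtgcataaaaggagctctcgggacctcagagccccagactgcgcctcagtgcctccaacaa

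Of 32851 promoters of this length, 0.356% held the NF-kB motif, 12.4% held TATAAA and 16.1% held AGAACA. The AGAACA element was also present 96 bases before the start site of Cxcr2 and 185 bases before that of Cxcr4, and the TATA box before that of Cxcr4, 30 bases from that site, where TTTATA on the other strand overlaps it. The AP-1 motif TGANTCA (6.75% of promoters) and the palindromic estrogen response element (0.0639%) matched none of the 8. These matches describe the letters only.

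The study had designed PCR primers for Ackr3 and Cxcl14, and their sequences show which part of each transcript a PCR reads. When matched to GENCODE transcripts of GRCm38, the Ackr3 forward primer lay in the 5′ UTR in exon 1 (chr1:90204050-90204068) and the reverse primer in the coding part of exon 2 (chr1:90213834-90213855). The Cxcl14 forward primer lay in coding exon 3 (chr13:56292501-56292522), and the reverse primer in exon 4 across the end of the coding sequence (chr13:56289777-56289800). The PCR values were not analysed here.
Ackr3 forward: ccgtcaggaaggcaaacca
Ackr3 reverse: ccaggctctgcatagtcaaaca
Cxcl14 forward: cctaagctgcagagcaccaaac
Cxcl14 reverse: ccatgatcgtccaccctattcttc

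Expression is given in TPM, a transcript abundance scaled for transcript length and to the same total in each library, so levels of different genes can be compared and the number of reads behind a value is unknown. Genes above 0 TPM numbered 22702 to 24097 per library. The median correlation of a library with the others of its group was 0.980 to 0.990 in 19 libraries and 0.963 in control replicate 2, which stood apart. Stromal markers, smooth muscle markers and epithelial markers were abundant in every uterus (lowest sums 4285, 4806 and 494 TPM), and the summed embryo markers did not exceed 4.09 TPM in any. Groups were compared by limma on log2(TPM + 0.1) over the 18706 genes above 0 in all libraries, with Benjamini-Hochberg adjustment over all of them and a call at an adjusted p under 0.05. In all, 7 of the 10 members were tested, and Cxcl1, Cxcl2 and Cxcr2, each listed at 0 in at least 1 mouse, were compared by a two-sided exact permutation test over every arrangement of 5 against 5 mice, whose smallest possible p is 0.00794.

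RU486 treatment was followed by higher levels of 5 of the 7 tested members, IF mice compared with control mice. The 5 were Ackr3, Cxcl14, Cxcl12, Cxcl16 and Cxcr4, and none was lower. Over all tested genes 21.9% were called in this comparison and 13.4% were called higher. The median log2 fold change was 0.72 over the 7 members and 0.02 over all genes. The members were chosen with earlier results of these data known, so these medians do not describe the whole family. Over the 8 other tested genes of the family the median was 0.19, with 0 called. Between the PBMC and IF groups 0 members were called, as were 0% of all genes by limma, although 1271 genes had an unadjusted p under 0.05, with Cxcr6 the only tested member among them. The PBMC-hCG group had 2 members, Ackr3 and Cxcl14, at lower levels than the IF group, where 13.6% of all genes were called and 5.99% were called lower. Compared directly, PBMC-hCG and PBMC mice differed in 0 members and in 0.0107% of all genes by limma, and 3024 genes, Cxcl12, Ackr3 and Cxcr6 among them, had an unadjusted p under 0.05. Against the control group, 5 members were called in the PBMC group (19.5% of all genes) and 4 in the PBMC-hCG group (31.8% of all genes), all higher. The 3 comparisons with control share the control mice, and the comparisons of both PBMC groups with IF share the IF mice.

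**Figure D1:**
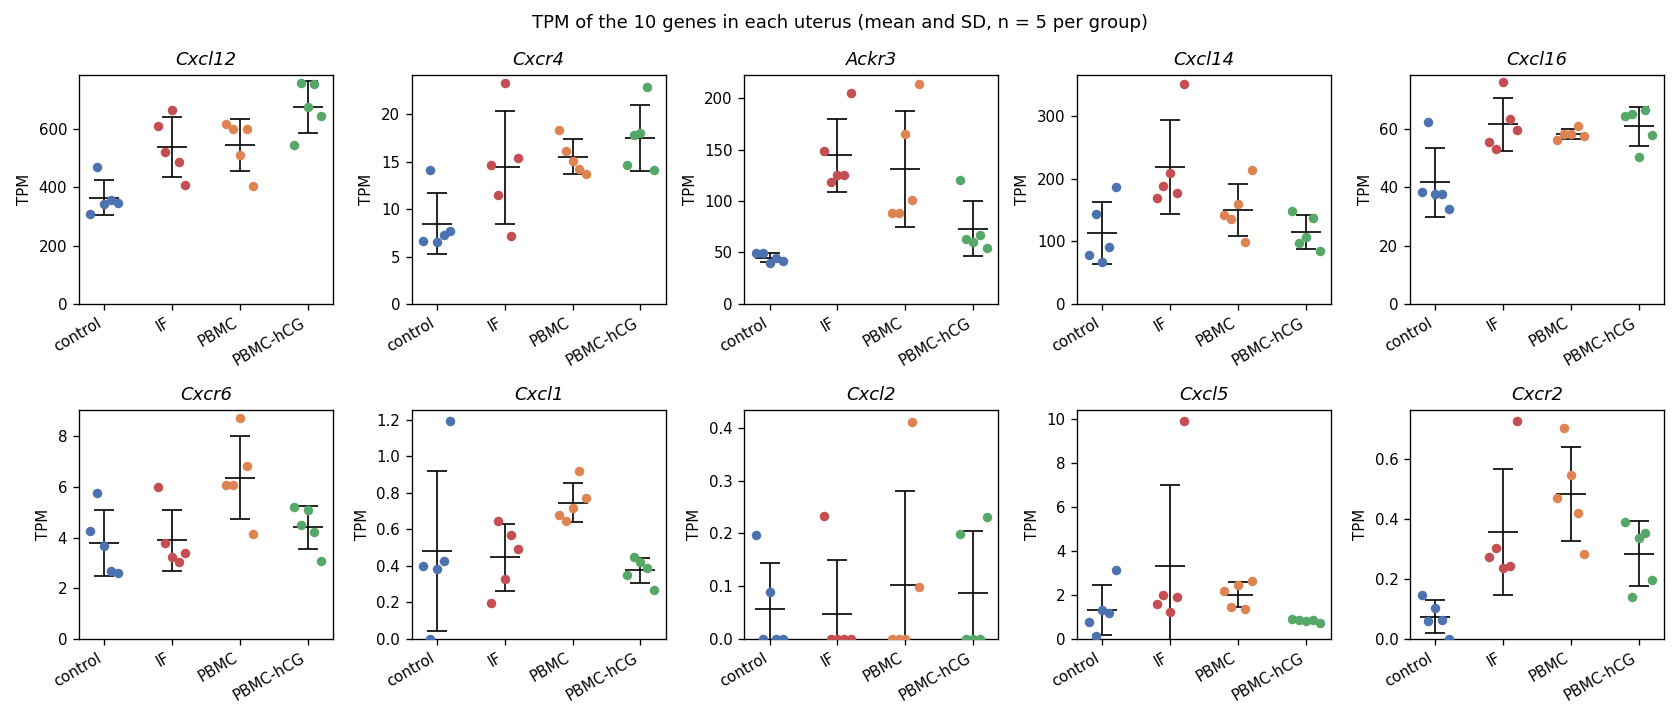
TPM of each of the 10 genes (vertical axes, linear from 0) in the 4 groups (horizontal axis), with 1 point per uterus and bars at the mean and SD of 5 mice. Ackr3 lay between 39.8 and 49.8 TPM in all control mice and above 88 TPM in all IF and PBMC mice. The lower SD bar of Cxcl5 in the IF group reaches below 0 and ends at the axis.

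**Figure D2:**
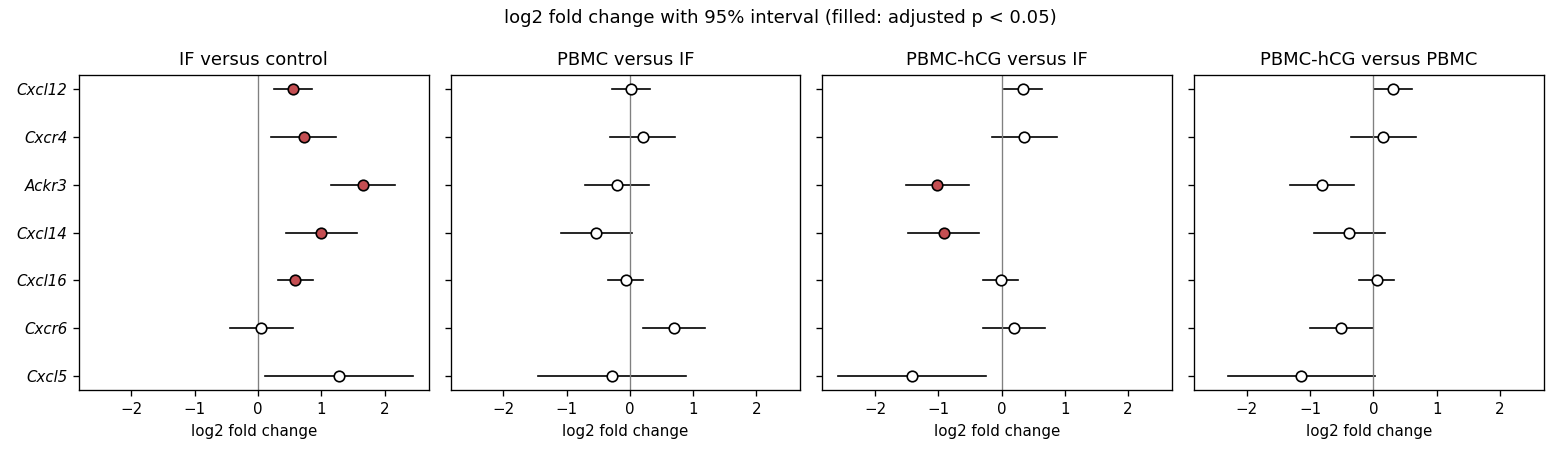
Log2 fold change on the log2(TPM + 0.1) scale with its 95% interval from limma (horizontal axis) for the 7 tested members, in 4 comparisons. Filled points had an adjusted p under 0.05: 5 members in IF versus control and Ackr3 and Cxcl14 in PBMC-hCG versus IF.

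Cxcl12 was the most abundant member in each group, followed by Cxcl14, whose range overlapped that of Ackr3 in the 3 groups given RU486. In control mice Ackr3 (45.0 TPM) and Cxcl16 (41.6 TPM) came next, with overlapping ranges. In the IF group Ackr3 (144 TPM) stood above Cxcl16 (61.5 TPM) with no overlap, and the same order without overlap was seen in the PBMC group. In the PBMC-hCG group the ranges of Ackr3 (73.2 TPM) and Cxcl16 (60.8 TPM) overlapped. Cxcr4 followed, and Cxcr6 ranked below it in each group. Cxcl5, Cxcl1, Cxcr2 and Cxcl2 were the 4 least abundant members in every group, and Cxcl2 was listed at 0 in 13 of 20 mice.

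The genes of the CXCL12 axis comprise the ligand and its signalling and scavenging receptors. Ackr3 (NCBI gene 12778, chr1:90203980-90215724) had a larger fold change between IF and control than Cxcr4 and Cxcl12. Its values in the 5 control mice were 49.8, 49.1, 39.8, 44.7 and 41.8 TPM. In the IF group they were 148, 119, 125, 125 and 205 TPM. Every IF mouse was above every control mouse, and the lowest IF value was over 2 times the highest control value. In the PBMC group the values were 88.6, 88.1, 166, 101 and 214 TPM, so that 3 mice lay below the IF group's range and 1 above it. In the PBMC-hCG group they were 121, 63.4, 60.1, 66.8 and 54.6 TPM. Replicate 1 of that group reached the level of the IF mice, and the other 4 lay between the control and IF ranges. Group means were 45.0 ± 4.37 TPM in control, 144 ± 35.7 TPM in IF, 131 ± 56.3 TPM in PBMC and 73.2 ± 27.0 TPM in PBMC-hCG (SD, n = 5 each). The log2 fold change of IF against control was 1.65 (standard error 0.24, adjusted p = 7.4e-05), or 3.15-fold. That of PBMC-hCG against IF was -1.01 (standard error 0.24, 95% interval -1.52 to -0.51, adjusted p = 0.0287), or 2.02-fold lower. The PBMC and IF groups differed by -0.20 (95% interval -0.71 to 0.30, adjusted p = 0.878), and PBMC-hCG and PBMC by -0.81 (95% interval -1.31 to -0.31, adjusted p = 0.265). Ackr3 remained above control in the PBMC group (log2 fold change 1.45, adjusted p = 0.000303) and in the PBMC-hCG group (0.64, adjusted p = 0.0485). The last call was lost without any of control replicates 1, 3, 4 and 5 or PBMC-hCG replicates 1, 2, 3 and 4 (adjusted p = 0.0557 to 0.134). It was also lost with a pseudocount of 1 (adjusted p = 0.0517), with genes above 0 in any library (0.0803) and with libraries centred on their median (0.0851). The same held without the variance trend (0.0562) and with replicate number as a block (0.0580). No PBMC-hCG value fell within the control range (exact permutation p = 0.00794), and the share of all genes so separated was not counted.

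The call of Ackr3 between PBMC-hCG and IF was lost when IF replicate 2, 4 or 5 or PBMC-hCG replicate 2, 3, 4 or 5 was left out, with adjusted p from 0.0545 to 0.0994 and a log2 fold change of -1.21 to -0.88 over all 10 such fits. In the 7 fits that lost the call, 0 to 34 of all genes were called, and in the other 3, 2335 to 5062. Without PBMC-hCG replicate 1, the mean of that group was 61.2 ± 5.19 TPM (SD, n = 4) and the fold change -1.21 (adjusted p = 0.00563).

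Cxcr4 (NCBI gene 12767, chr1:128588199-128592299), the signalling receptor of CXCL12, moved less. Control values were 6.68, 14.1, 6.56, 7.29 and 7.70 TPM. IF values were 14.6, 11.5, 23.3, 7.12 and 15.4 TPM. Control replicate 2 lay at the level of the IF mice and IF replicate 4 at that of the control mice, so the groups overlapped. The PBMC group held 18.4, 16.1, 15.1, 14.2 and 13.7 TPM, and the PBMC-hCG group 14.7, 17.8, 18.0, 22.9 and 14.1 TPM. All 10 mice given cells were above the 4 control mice other than replicate 2. The means were 8.47 ± 3.19 TPM in control, 14.4 ± 5.94 TPM in IF, 15.5 ± 1.85 TPM in PBMC and 17.5 ± 3.49 TPM in PBMC-hCG (SD, n = 5 each). IF exceeded control by 0.72 on the log2 scale (standard error 0.25, adjusted p = 0.0435). This call did not hold without control replicates 1, 3, 4 or 5 or IF replicates 1, 2, 3 or 5 (adjusted p = 0.0508 to 0.121), and the exact permutation test gave p = 0.0794. Higher levels than in control were called in the PBMC group (0.92, adjusted p = 0.0127) and the PBMC-hCG group (1.08, adjusted p = 0.00297). PBMC-hCG and IF differed by 0.36 with a 95% interval from -0.16 to 0.88 (adjusted p = 0.306).

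Cxcl12 (NCBI gene 20315, chr6:117168535-117181368), the ligand, was 310, 469, 342, 356 and 348 TPM in the control mice. It was 611, 522, 666, 487 and 409 TPM in the IF mice and 616, 599, 512, 599 and 405 TPM in the PBMC mice. The PBMC-hCG mice had 547, 757, 677, 756 and 644 TPM, all above the highest control mouse. How many of all genes separated these groups was not counted. The means rose from 365 ± 60.8 TPM in control to 539 ± 102 TPM in IF and 676 ± 87.6 TPM in PBMC-hCG (SD, n = 5 each). The log2 fold change was 0.56 between IF and control (standard error 0.14, adjusted p = 0.00879) and 0.89 between PBMC-hCG and control (standard error 0.14, adjusted p = 0.000149). Between PBMC-hCG and IF it was 0.34 (95% interval 0.04 to 0.64, adjusted p = 0.103), a difference that did not pass adjustment. PBMC mice were above control mice by 0.58 (adjusted p = 0.00733) and differed from IF mice by 0.02 (95% interval -0.28 to 0.32, adjusted p = 0.982).

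The levels of both receptors were also set side by side within each uterus. The ratio of Ackr3 to Cxcr4, a measure chosen after the values had been seen, was 5.71 ± 1.45 in control, 11.3 ± 4.48 in IF, 8.79 ± 4.49 in PBMC and 4.39 ± 2.18 in PBMC-hCG (SD, n = 5 each). It was 7.45, 3.48, 6.07, 6.14 and 5.43 in the control mice and 10.1, 10.3, 5.38, 17.6 and 13.3 in the IF mice. In the PBMC-hCG mice it was 8.24, 3.56, 3.34, 2.92 and 3.88, so 4 of 5 lay below every IF mouse.

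**Figure D3:**
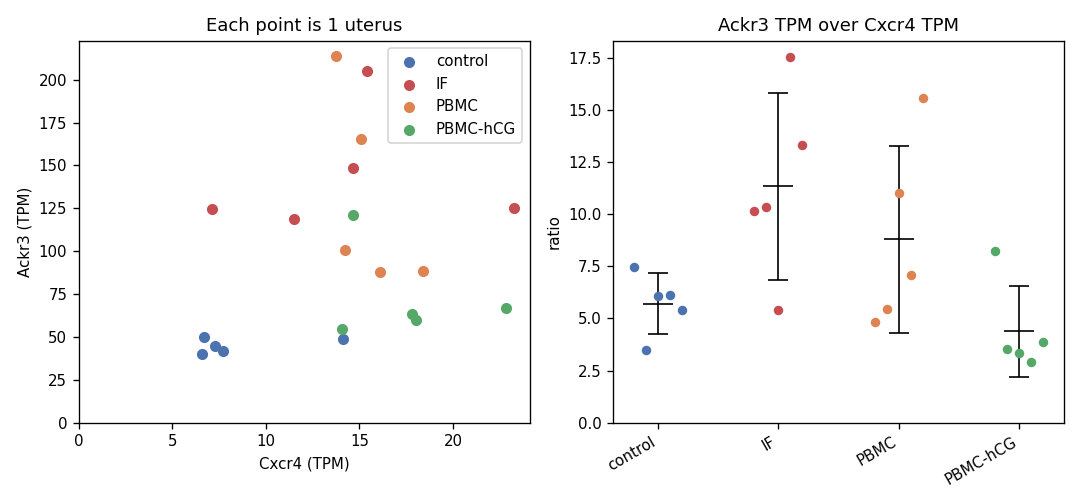
Left, Ackr3 TPM against Cxcr4 TPM with 1 point per uterus, both axes linear from 0; right, the ratio of Ackr3 to Cxcr4 TPM in each uterus with mean and SD (n = 5 per group). PBMC-hCG mice lay in the Cxcr4 range of IF mice with lower Ackr3, except replicate 1 at 121 TPM.

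Cxcl14 (NCBI gene 57266, chr13:56288643-56296811) encodes a chemokine of epithelial tissues whose receptor is not settled. The control mice had 78.3, 143, 67.7, 90.2 and 186 TPM. The IF mice had 169, 187, 209, 177 and 351 TPM, and only control replicate 5 reached into their range. The PBMC mice had 142, 135, 159, 99.6 and 214 TPM. The PBMC-hCG mice, at 148, 97.2, 107, 136 and 83.8 TPM, lay entirely below the IF mice and within the control range. How many of all genes separated PBMC-hCG from IF mice in this way was not counted. The means were 113 ± 50.1 TPM in control, 219 ± 75.6 TPM in IF, 150 ± 42.0 TPM in PBMC and 114 ± 26.9 TPM in PBMC-hCG (SD, n = 5 each). The log2 fold change was 1.002 for IF against control (standard error 0.27, adjusted p = 0.0114) and -0.91 for PBMC-hCG against IF (standard error 0.27, 95% interval -1.47 to -0.35, adjusted p = 0.0383). PBMC and IF differed by -0.53 (95% interval -1.09 to 0.03, adjusted p = 0.746). PBMC-hCG and control differed by 0.09, with a 95% interval from -0.47 to 0.65 (adjusted p = 0.825). The call against IF was lost without IF replicate 2, 4 or 5 or PBMC-hCG replicate 2, 3, 4 or 5 (adjusted p = 0.0658 to 0.129, log2 fold change -1.01 to -0.73 over all 10 fits) and when genes above 0 in any library were tested (adjusted p = 0.0640). Without IF replicate 5, the highest library, the IF mean was 186 ± 17.2 TPM (SD, n = 4).

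Cxcl16 (NCBI gene 66102, chr11:70454389-70459984) was 38.2, 62.4, 37.6, 37.5 and 32.4 TPM in the control mice and 55.4, 53.2, 76.1, 63.2 and 59.5 TPM in the IF mice. In the PBMC mice it was 56.3, 58.3, 58.2, 61.1 and 57.6 TPM and in the PBMC-hCG mice 64.2, 65.0, 50.4, 66.4 and 57.7 TPM. Every mouse given RU486 was above 4 of the 5 control mice, and control replicate 2 was within their range. The log2 fold change against control was 0.59 in IF (standard error 0.13, adjusted p = 0.00375), 0.52 in PBMC (adjusted p = 0.00923) and 0.58 in PBMC-hCG (adjusted p = 0.00324). The RU486 groups were close to one another, with differences of -0.07 between PBMC and IF (95% interval -0.35 to 0.21) and -0.01 between PBMC-hCG and IF (95% interval -0.29 to 0.27).

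Cxcr6 (NCBI gene 80901, chr9:123806477-123811754), the receptor of CXCL16, was measured at 3.79 ± 1.30 TPM in control, 3.89 ± 1.21 TPM in IF, 6.37 ± 1.66 TPM in PBMC and 4.41 ± 0.852 TPM in PBMC-hCG (SD, n = 5 each). In the PBMC mice it was 6.07, 6.07, 8.74, 6.83 and 4.15 TPM, against 5.999, 3.802, 3.25, 3.03 and 3.38 TPM in the IF mice and 4.26, 5.76, 3.65, 2.69 and 2.60 TPM in the control mice. Of the PBMC mice, 4 were above every IF and control mouse. PBMC exceeded control by 0.76 on the log2 scale (standard error 0.24, adjusted p = 0.0298), a call lost without control replicate 3, 4 or 5 or PBMC replicate 2, 3 or 4 (adjusted p = 0.0519 to 0.0864) and in a fit of these groups alone (adjusted p = 0.0703). Against IF it was 0.70 (95% interval 0.21 to 1.20, adjusted p = 0.662), and IF and control differed by 0.05 (95% interval -0.44 to 0.54). The summed T and NK cell markers were 92.2 to 101 TPM in control, 87.1 to 146 TPM in IF, 105 to 146 TPM in PBMC and 116 to 160 TPM in PBMC-hCG, and all 10 markers were above 0 in every mouse. Their part in the level of Cxcr6 was not tested. In whole tissue, fewer cells of a type and less RNA per cell cannot be told apart.

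Cxcr2 (NCBI gene 12765, chr1:74153994-74161246), the neutrophil receptor, was near the bottom of the measured range. Control mice had 0.148, 0.0576, 0.102, 0.0631 and 0 TPM. IF mice had 0.274, 0.303, 0.237, 0.242 and 0.730 TPM, and PBMC mice 0.470, 0.705, 0.547, 0.419 and 0.282 TPM. All IF and all PBMC mice were above all control mice (exact permutation p = 0.00794 for each). PBMC-hCG mice had 0.391, 0.140, 0.337, 0.353 and 0.198 TPM, and only replicate 2 reached into the control range (exact permutation p = 0.0159). In a limma fit over the genes above 0 in at least 1 library, Cxcr2 passed adjustment in IF against control (log2 fold change 1.36, adjusted p = 0.00504), PBMC against control (1.77, adjusted p = 0.000666) and PBMC-hCG against control (1.15, adjusted p = 0.0116). The pseudocount draws these values toward 0 at such levels. Among tested genes, 12.8% had IF and control groups that did not overlap, and of the 7 tested members Ackr3 alone was without overlap. The share of genes without overlap was not counted for the other comparisons. The summed neutrophil markers were 75.9 to 173 TPM in control, 104 to 211 TPM in IF, 142 to 265 TPM in PBMC and 63.0 to 361 TPM in PBMC-hCG. Of the 10 markers, Ly6g, Elane, Camp, Ngp and Mmp8 were listed at 0 in some mice, and 1 of the 5 tested was higher in IF than in control. Their part in the level of Cxcr2 was not tested.

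The ligands of CXCR2 were also measured at low levels, and Cxcl1, Cxcl2 and Cxcl3 are close paralogs between which reads could be shared. Cxcl5 (NCBI gene 20311, chr5:90759298-90761625) was 0.766, 0.117, 1.29, 1.18 and 3.13 TPM in the control mice and 1.56, 2.01, 1.21, 1.90 and 9.90 TPM in the IF mice. It was 2.16, 1.43, 2.43, 1.36 and 2.63 TPM in the PBMC mice and 0.895, 0.845, 0.827, 0.836 and 0.727 TPM in the PBMC-hCG mice. The PBMC-hCG mice lay below every IF and every PBMC mouse and within a narrow range. The share of all genes without overlap was not counted for these comparisons. The log2 fold change of PBMC-hCG was -1.42 against IF (95% interval -2.58 to -0.25, adjusted p = 0.0838) and -1.14 against PBMC (95% interval -2.30 to 0.03, adjusted p = 0.315), neither of which passed adjustment. The exact permutation test, which is unadjusted, gave p = 0.00794 for each. This is its smallest possible value and is reached whenever the groups compared do not overlap. Without IF replicate 5, whose value was 9.90 TPM, the IF mean fell from 3.31 ± 3.69 TPM (SD, n = 5) to 1.67 ± 0.360 TPM (SD, n = 4) and the fold change against IF became -0.91 (adjusted p = 0.260), and without IF replicate 3 the call was reached (-1.65, adjusted p = 0.0450). IF and control differed by 1.28 (95% interval 0.12 to 2.44, adjusted p = 0.109).

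Cxcl1 (NCBI gene 14825, chr5:90891245-90893121) was 0.481 ± 0.436 TPM in control, 0.445 ± 0.183 TPM in IF, 0.745 ± 0.108 TPM in PBMC and 0.374 ± 0.0695 TPM in PBMC-hCG (SD, n = 5 each). The PBMC mice had 0.678, 0.644, 0.714, 0.919 and 0.771 TPM and the PBMC-hCG mice 0.350, 0.447, 0.419, 0.385 and 0.268 TPM, without overlap (exact permutation p = 0.00794). For this comparison the share of all genes without overlap was not counted. PBMC mice were also higher than IF mice, which had 0.193, 0.646, 0.328, 0.566 and 0.491 TPM and overlapped them at the highest value (exact permutation p = 0.0159). Neither difference passed adjustment over all genes above 0 in at least 1 library (adjusted p = 0.454 and 0.820), and control replicate 2 was listed at 0. Cxcl2 (NCBI gene 20310, chr5:90903899-90905938), which carries the same NF-kB sequence, was listed at 0 in 3 control, 4 IF, 3 PBMC and 3 PBMC-hCG mice and did not exceed 0.411 TPM, so no change could be read from it.

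Cxcl5, Cxcl1 and Cxcl2 lie in a cluster on chromosome 5 in the order Cxcl5, Ppbp, Pf4, Cxcl3, Cxcl15, Cxcl1 and Cxcl2, spanning from 90759298 to 90905938. Neighbours in this cluster differed widely in level. Pf4, the platelet factor 4 gene, was 23.3 ± 3.13 TPM in control and 22.9 ± 5.73 TPM in IF, and Cxcl15 was 11.4 ± 9.35 TPM and 8.96 ± 6.004 TPM (SD, n = 5 each). Ppbp and Cxcl3 did not exceed 0.454 and 0.304 TPM in any mouse.

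**Figure D4:**
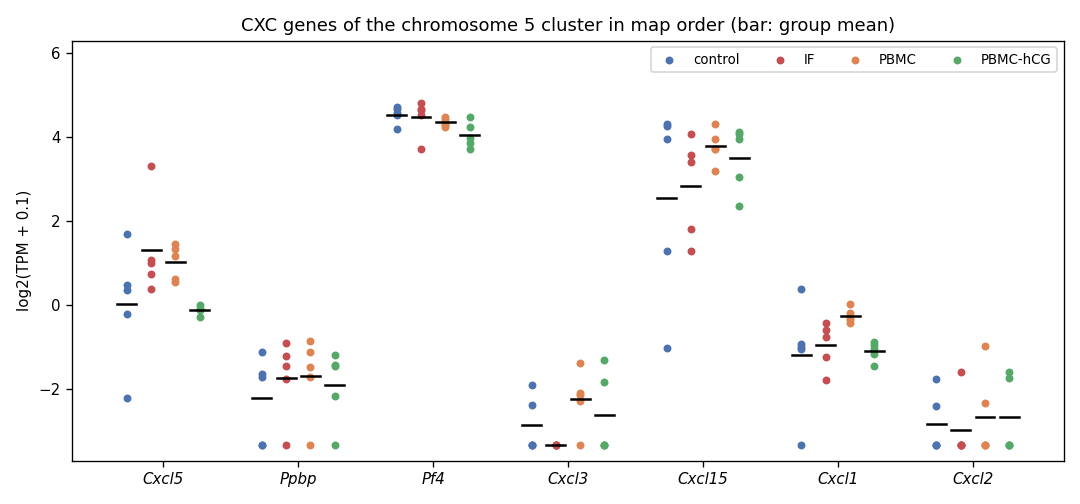
Log2(TPM + 0.1) (vertical axis) of the 7 genes of the chromosome 5 cluster in map order, evenly spaced (horizontal axis), with 1 point per uterus and a bar at the group mean. Points on the lowest line are listed at 0 TPM. Cxcl5 was lower in PBMC-hCG mice than in all IF and PBMC mice. The share of all genes so separated was not counted.

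Of the 13 other genes of the family, 8 were tested, with 0 called between IF and control (lowest adjusted p = 0.211), 0 between PBMC-hCG and IF (lowest adjusted p = 0.0929) and 3 between PBMC-hCG and control. Those 3 were named after their values had been seen. The shares of all genes called were 21.9% between IF and control, 13.6% between PBMC-hCG and IF and 31.8% between PBMC-hCG and control. Cxcl10, an interferon-induced ligand of CXCR3, was 9.85 ± 3.87 TPM in PBMC-hCG and 4.01 ± 1.32 TPM in control (SD, n = 5 each), and the log2 fold change was 1.23 (adjusted p = 0.0310). Cxcl17, a mucosal chemokine, had a log2 fold change of 0.49 (adjusted p = 0.0481), and Pf4 of -0.48 (adjusted p = 0.0390).

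The genes around the receptors were called in both directions between IF and control, where 21.9% of all genes were called. Of 12 other ligands, cofactors and proteases, 4 were higher and 1 lower. Adm, encoding adrenomedullin, a peptide that ACKR3 also binds, had means of 17.7 TPM in control and 70.2 TPM in IF (log2 fold change 1.95, standard error 0.22, adjusted p = 5.83e-06). Mif, encoding a cytokine that binds CXCR2 and CXCR4, fell by 0.66 on the log2 scale (adjusted p = 0.00107). The metalloproteinase gene Mmp14 was higher by 0.43 (adjusted p = 3.44e-07), and Adam17, whose protein cuts CXCL16 from the membrane, by 0.32 (adjusted p = 0.00779). The fifth, Adam10, encoding the other CXCL16 sheddase and named after its value had been seen, was higher by 0.28 (adjusted p = 0.00486). Median log2 fold change in this list was 0.21, against 0.02 over all genes. Like the members, this list and those below were chosen with earlier results of these data known.

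Of 16 genes of receptor signalling, 4 were higher and 2 lower, with a median log2 fold change of 0.15. Rgs2, a regulator that ends G protein signals, fell from a mean of 480 TPM to 92.0 TPM (log2 fold change -2.38, standard error 0.10, adjusted p = 2.97e-11), and Gnai1, an inhibitory G protein subunit, fell by 0.83 on the log2 scale (adjusted p = 1.31e-05). The receptor kinase genes Grk3 and Grk5 were higher by 1.05 (adjusted p = 0.000357) and 0.61 (adjusted p = 0.00407). Of 19 inducers of CXC ligands, 17 were tested, and 6 were higher and 1 lower, with a median of 0.27. Il17ra, a receptor subunit for interleukin 17, had means of 16.6 TPM in control and 45.4 TPM in IF (log2 fold change 1.42, standard error 0.15, adjusted p = 2.44e-06). Its partner Il17rc fell by 0.42 (adjusted p = 0.00217). Tlr4, the endotoxin receptor, was higher by 0.52 (adjusted p = 0.00366) and Tnfrsf1a, a TNF receptor, by 0.47 (adjusted p = 0.0224).

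Between PBMC-hCG and IF, 13.6% of all genes were called, and these lists held 1 call of 12, 1 of 16 and 3 of 17 tested genes. Sdc1, encoding the proteoglycan syndecan 1, fell from a mean of 135 TPM to 75.1 TPM (log2 fold change -0.83, adjusted p = 0.0287) and was the only call among the 12 ligands, cofactors and proteases. Arrb1, encoding an arrestin that uncouples receptors from G proteins, was the only call among the 16 signalling genes (0.36, adjusted p = 0.0344). Of the 17 tested inducers 3 were lower: Il17ra by -0.78 (adjusted p = 0.0258), Nfkbia, an inhibitor of NF-kB, by -0.38 (adjusted p = 0.0444), and Rela, an NF-kB subunit, by -0.22 (adjusted p = 0.0472). Adm and Rgs2 differed between these groups by -0.35 (adjusted p = 0.272) and 0.05 (adjusted p = 0.778). None of the 3 lists held a call between PBMC and IF.

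Markers of the cell types of the uterus moved with the groups as well. Of all genes, 21.9% were called between IF and control and 13.4% were called higher. Between IF and control, 7 of 7 endothelial, 4 of 6 epithelial, 3 of 7 stromal, 2 of 9 macrophage, 1 of 10 T and NK cell and 1 of 5 tested neutrophil markers were higher. Foxa2, of the epithelial list, 1 of 6 smooth muscle, 1 of 4 tested B and plasma cell and 1 of 5 tested ovary and oviduct markers were lower, and the 1 tested embryo marker was not called. The endothelial sum was 379 to 517 TPM in control, 581 to 626 TPM in IF, 573 to 667 TPM in PBMC and 641 to 723 TPM in PBMC-hCG, and the stromal sum was 4285 to 5975 TPM, 6616 to 7839 TPM, 7002 to 8475 TPM and 7791 to 8633 TPM. Both sums were thus higher in every RU486 mouse than in every control mouse. The epithelial sum was 494 to 868.3 TPM in control, 728 to 937 TPM in IF, 816 to 1049 TPM in PBMC and 864 to 1147 TPM in PBMC-hCG. Its highest control value was that of replicate 2, and the other control mice had 494 to 623 TPM. The macrophage sum was 569 to 725 TPM in control and 621 to 689 TPM in IF. The 4 tested B and plasma cell markers had a median log2 fold change of -1.01 between IF and control, where Jchain, the immunoglobulin joining chain gene, named after its value had been seen, fell from a mean of 159 TPM to 47.5 TPM (log2 fold change -2.70, adjusted p = 0.0214). Between PBMC-hCG and control, where 31.8% of all genes were called, 2 of the 4 were lower, with a median of -1.04. The smooth muscle sum was 5900 to 11100 TPM in control, 5950 to 7431 TPM in IF and 4806 to 6039 TPM in PBMC-hCG, and the ovary and oviduct sum 31.8 to 42.4 TPM in control and 18.9 to 36.1 TPM in IF, with Fshr at 0 in every mouse. Between PBMC-hCG and IF, where 13.6% of all genes were called, 1 endothelial, 1 epithelial and 1 stromal marker were higher and 0 were lower. The part of tissue composition in the levels of the chemokine genes was not tested.

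**Figure D5:**
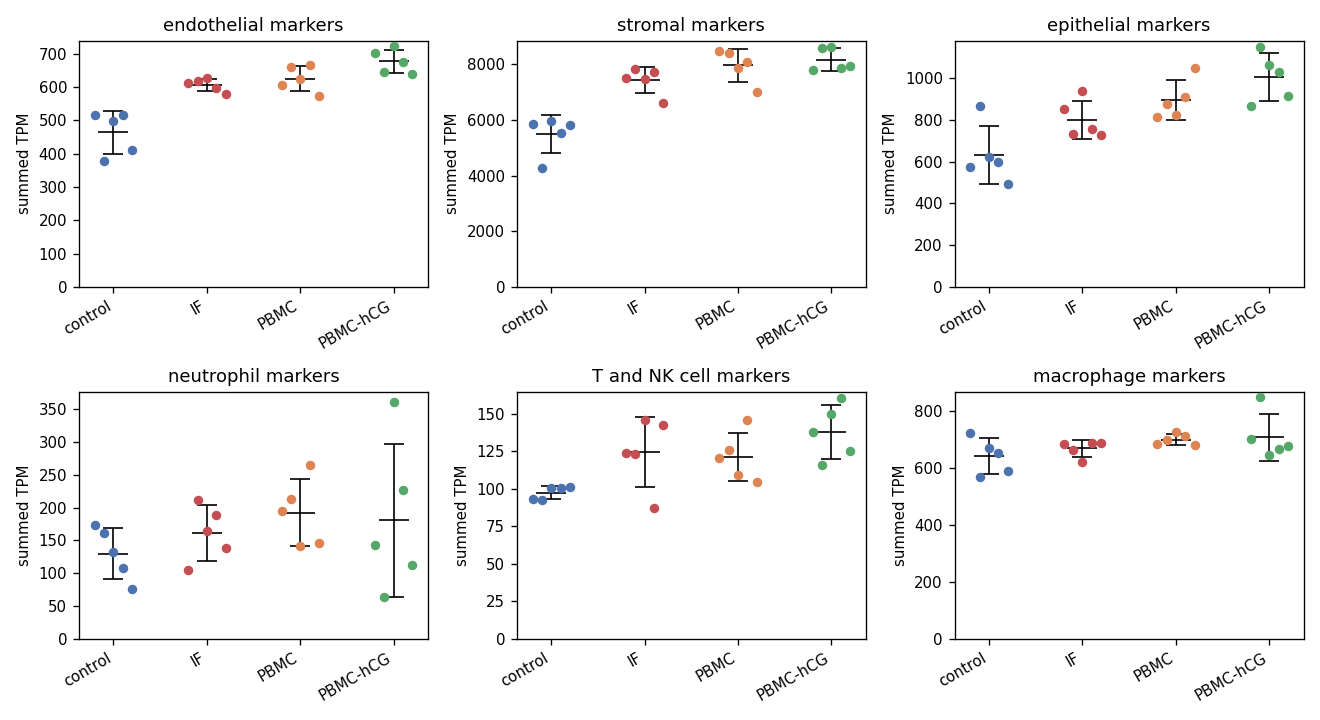
Summed TPM (vertical axes, linear from 0) of 6 marker lists in each uterus, with mean and SD (n = 5 per group). Endothelial and stromal sums of all IF, PBMC and PBMC-hCG mice lay above those of all control mice, while the macrophage sums overlapped between groups.

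The genes whose log2 values were most like those of each tested member over the 20 mice were sought among 15770 genes with a mean of at least 1 TPM. The mice share their group, so the correlation after subtraction of group means is given beside the first, without a test. For Ackr3 they were Lrrc32 (r = 0.974, 0.893 within groups), Itgb3 (0.960, 0.859) and Skil (0.955, 0.861), of which Lrrc32 and Itgb3 encode a TGF-beta binding surface protein and an integrin subunit. For Cxcl12 they were Fchsd1 (0.974, 0.923), Rin2 (0.971, 0.914) and Fcgrt (0.969, 0.906), and for Cxcr4 they were Ddit3 (0.934, 0.873), Por (0.931, 0.891) and Itga11 (0.927, 0.870). The transcription factor gene Runx1 (0.935, 0.890) led for Cxcl14, followed by Calml3 (0.911, 0.823) and Itga3 (0.909, 0.875). For Cxcl16 they were Zmynd15 (0.950, 0.887), Npr1 (0.949, 0.871) and Sidt2 (0.940, 0.877). Cxcl5 was most like Cemip2 (0.923, 0.890), Cdh3 (0.913, 0.900) and Tmem30a (0.906, 0.871). Cxcr6 had the weakest likeness, to the T cell genes Cd3g (0.787, 0.795) and Tcrg-C1 (0.753, 0.680) and to Rem1 (0.730, 0.588).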

How the data were processed

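Uterine RNA-seq of 20 mice was analysed, with groups and replicate numbers from the sample labels. Per the labels and the methods of the study, the authors prepared stranded mRNA libraries, trimmed reads with Trimmomatic, used HISAT2 to map them to mm10 (GRCm38) and StringTie to assemble transcripts (versions not given in the sources used here). The deposited values are TPM. They sum to 999989 to 999999 in each library, so depth is unknown and no counting error can be given.

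Values were transformed to log2(TPM + 0.1), which understates fold changes of low genes. The authors' count test could not be run on TPM, so all 4 groups were fitted by limma 3.58.1 (trend) in R 4.3.3 over the 18706 genes above 0 in all libraries, without covariates, with Benjamini-Hochberg adjustment within each of 6 comparisons. Single values were compared by two-sided exact permutation. A fold change is the difference of mean log2 values. The fit was tested on simulated data. Nothing says that the replicates differ in batch or day, and each is 1 mouse.

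All members were named. From other lists, at most the 4 largest changes called between IF and control or between PBMC-hCG and IF were named for each list and comparison, and the 3 genes most correlated with each tested member. Adam10, Cxcl10, Cxcl17, Pf4, Foxa2 and Jchain fell outside this rule and were named after their values had been seen. Members and lists were chosen with earlier results of these data known. Promoters came from RefSeq (GRCm38.p6) and gene positions from its annotation of that build. The summed B and plasma cell markers are not reported here. Alternatives were other pseudocounts, filters, scalings, fits, the thresholds of the study's call rule applied to the limma values, and each mouse left out. Python 3.11.15, pandas 2.3.3 and matplotlib 3.10.9 were used for values and plots.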

Additional observations from a re-analysis of the deposited data

Results flagged for a closer look

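In groups of 5, a sample was marked where its gap to the nearest other exceeded 0.71 of the group's range (Dixon's 95% limit). Of 44 groups examined, 11 were marked. The limit marks about 1 in 20 groups of independent, normally distributed values. The groups here share mice and include values at 0, so that rate need not hold for them. Control replicate 2 was high for Cxcl12 (469 TPM, others 310 to 356), Cxcr4 (14.1 TPM, others 6.56 to 7.70) and Cxcl16 (62.4 TPM, others 32.4 to 38.2). The same library had the lowest correlation with its group. PBMC-hCG replicate 1 was high for Ackr3 (121 TPM, others 54.6 to 66.8) and for the ratio of Ackr3 to Cxcr4 (8.24, others 2.92 to 3.88). IF replicate 5 was high for Cxcl14 (351 TPM, others 169 to 209), Cxcl5 (9.90 TPM, others 1.21 to 2.01) and Cxcr2 (0.730 TPM, others 0.237 to 0.303). IF replicate 1 was high for Cxcr6 (5.999 TPM, others 3.03 to 3.802) and was the only IF mouse with Cxcl2 above 0 (0.232 TPM). PBMC replicate 4 was high for Cxcl2 (0.411 TPM, others 0 to 0.0990).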

How the results depend on the processing

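Of 864 alternative values of single members, 785 kept their direction and their side of the threshold, 50 lost it, 8 gained it and 21 changed sign. The threshold was an adjusted p under 0.05 for limma fits. It was an unadjusted p under 0.05 for the exact permutation test, which also gave the main values of Cxcl1, Cxcl2 and Cxcr2. The thresholds of the study's call rule, a fold change of at least 2 with an unadjusted p under 0.05, were also applied to the limma values. The study itself used a count test, so these are not its own calls. The thresholds gave 3 members between IF and control (Ackr3, Cxcl14 and Cxcl5) and 2 between PBMC-hCG and IF (Ackr3 and Cxcl5, without Cxcl14). They gave 1 between PBMC and control (Ackr3) and 1 between PBMC-hCG and control (Cxcr4). The filter on genes above 0 in at least 1 library left 1 call between PBMC-hCG and IF. Leaving out each mouse in turn gave 0 to 4 members between PBMC-hCG and IF, with 0 in 7 of the 10 fits, and 0 to 5062 of all genes, against 2544 with all mice. It gave 4 to 6 members between IF and control, 4 to 5 between PBMC and control, 3 to 4 between PBMC-hCG and control, and 0 in every fit of the other comparisons. Of all genes, these fits called 3331 to 5020, 2960 to 4636 and 4758 to 7531 against control, in the same order. They called 0 to 2 genes between PBMC and IF and 2 to 7 between PBMC-hCG and PBMC. Sign changes concerned values that were not called. When mice were left out, log2 fold changes ranged from -0.11 to 0.21 for Cxcr6 in IF versus control and stood at -0.30 for Cxcl1. In PBMC versus IF they were -0.0709 to 0.13 for Cxcl12, -0.0242 to 0.40 for Cxcr4, -0.51 to 0.23 for Cxcl5 and -0.12 to 0.0138 for Cxcl16. In PBMC-hCG versus IF they were -0.0624 to 0.0668 for Cxcl16, which quantile normalization put at 0.0156. In PBMC-hCG versus control they were -0.0659 to 0.30 for Cxcl14, -0.69 to 0.28 for Cxcl5 and -0.44 for Cxcl1. The replicate block gave 2 members between PBMC-hCG and IF and lost Cxcr4 in IF versus control (adjusted p = 0.0608) and Ackr3 in PBMC-hCG versus control (adjusted p = 0.0580). Mice of the same number correlated from -0.25 to 0.46 in their deviations, and 4 of 20 were best matched by their own number, so the numbers were not taken to pair mice. The cause of these shifts was not tested. Depth is unknown, and values of Cxcl1, Cxcl2 and Cxcr2 below 1 TPM are the least certain.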

Other observations

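In the primer list of the study, the forward primer given for Ccl11 has the same letters as the reverse primer given for Ackr3, and among GENCODE transcripts of GRCm38 it matched Ackr3 and no Ccl11 transcript. The reverse primer given for Ccl11 matched Ccl11.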
